A study of Mus musculus with 20 samples.

Results

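The 10 genes described here mark the cells of blood vessel walls and of the connective tissue around and on the brain: Pdgfrb and Rgs5 of pericytes, Acta2, Tagln, Myl9 and Myh11 of smooth muscle, and Col1a1, Col1a2, Col3a1 and Dcn of fibroblasts and meninges. They were taken by gene symbol from a table of 29671 genes in the mouse amygdala. Each symbol stood in 1 row, and all 10 passed the filter on low counts that left 16727 genes for testing. The mice were male C57B6, bred in house from Taconic stock, behaviourally naive and 84 days old. They belonged to a stress lineage, begun by animals exposed to chronic unpredictable stress (adolescent stress, per the series title), or to a no-stress lineage. With 5 mice each, the groups were the stress and the no-stress lineage in the F1 generation and the same in the F2 generation. The title names the transgenerational inheritance of such stress as the subject. Tissue came from 1.2 mm punches of both sides, and libraries from polyadenylated RNA.

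Vessels in the brain are wrapped by mural cells. Pericytes sit on capillaries, under the control of platelet-derived growth factor from the endothelium, and help to keep the blood-brain barrier. Smooth muscle cells ring arterioles and set their width by contraction, and many of their contractile genes are switched on by serum response factor and its cofactors. Fibroblasts lie around larger vessels and in the meninges, and secrete fibrillar collagens and the proteoglycans that bind them. In punches of whole tissue, fewer cells of a type and less RNA per cell cannot be told apart.

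Values are in CPM, a gene's count scaled to a common library size, from deposited counts that summed to between 13654890 and 13714805 per library. All 10 genes were counted in all 20 libraries, with at least 15 counts (Col3a1) and at most 1589 (Rgs5). Per kilobase of transcript, the mean level over the libraries was 21.2 CPM for Rgs5, 9.85 for Myl9, 7.14 for Acta2 and 4.82 for Pdgfrb. It was 2.86 for Tagln, 2.51 for Myh11, 1.69 for Dcn, 1.51 for Col1a2, 0.700 for Col1a1 and 0.503 for Col3a1. The pericyte markers and a pair of contractile genes thus headed the order, and the fibroblast genes closed it. The ranges of neighbours in this order overlapped over the libraries, except those of Rgs5 (from 16.1 CPM per kilobase) and Myl9 (up to 15.7). The highest library exceeded the lowest by 1.69 times in Pdgfrb and by 6.60 times in Col3a1, with the other 8 genes between.

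Markers of other cells in the punches were summed as well, and their part in these levels was not tested. Markers of astrocytes summed to 3786 to 5390 CPM per library, those of neurons to 5708 to 8900, and those of 17 endothelial genes to 274 to 513. The 10 markers themselves summed to 122 to 258 CPM. Choroid plexus markers summed to 24.3 to 84.5 CPM, highest in F1 stress replicate 5. Of that list, Ttr had 12 to 632 counts in a library, Prlr 20 to 519 and Clic6 at least 138, while Folr1, Kcnj13, Otx2, Slc4a5 and Aqp1 had no more than 14 in any. Markers of striatal neurons ranged most widely within F2 stress, with 697 CPM in replicate 14 and 6727 CPM in replicate 15, the lowest and the highest sums of the 20 libraries. Neuronal markers were lowest in F2 no-stress replicate 20 (5708 CPM), followed by F2 stress replicate 15 (6075 CPM). Blood markers were highest in F2 stress replicate 15 (277 CPM) and ranged down to 81.6 CPM.

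**Figure D1:**
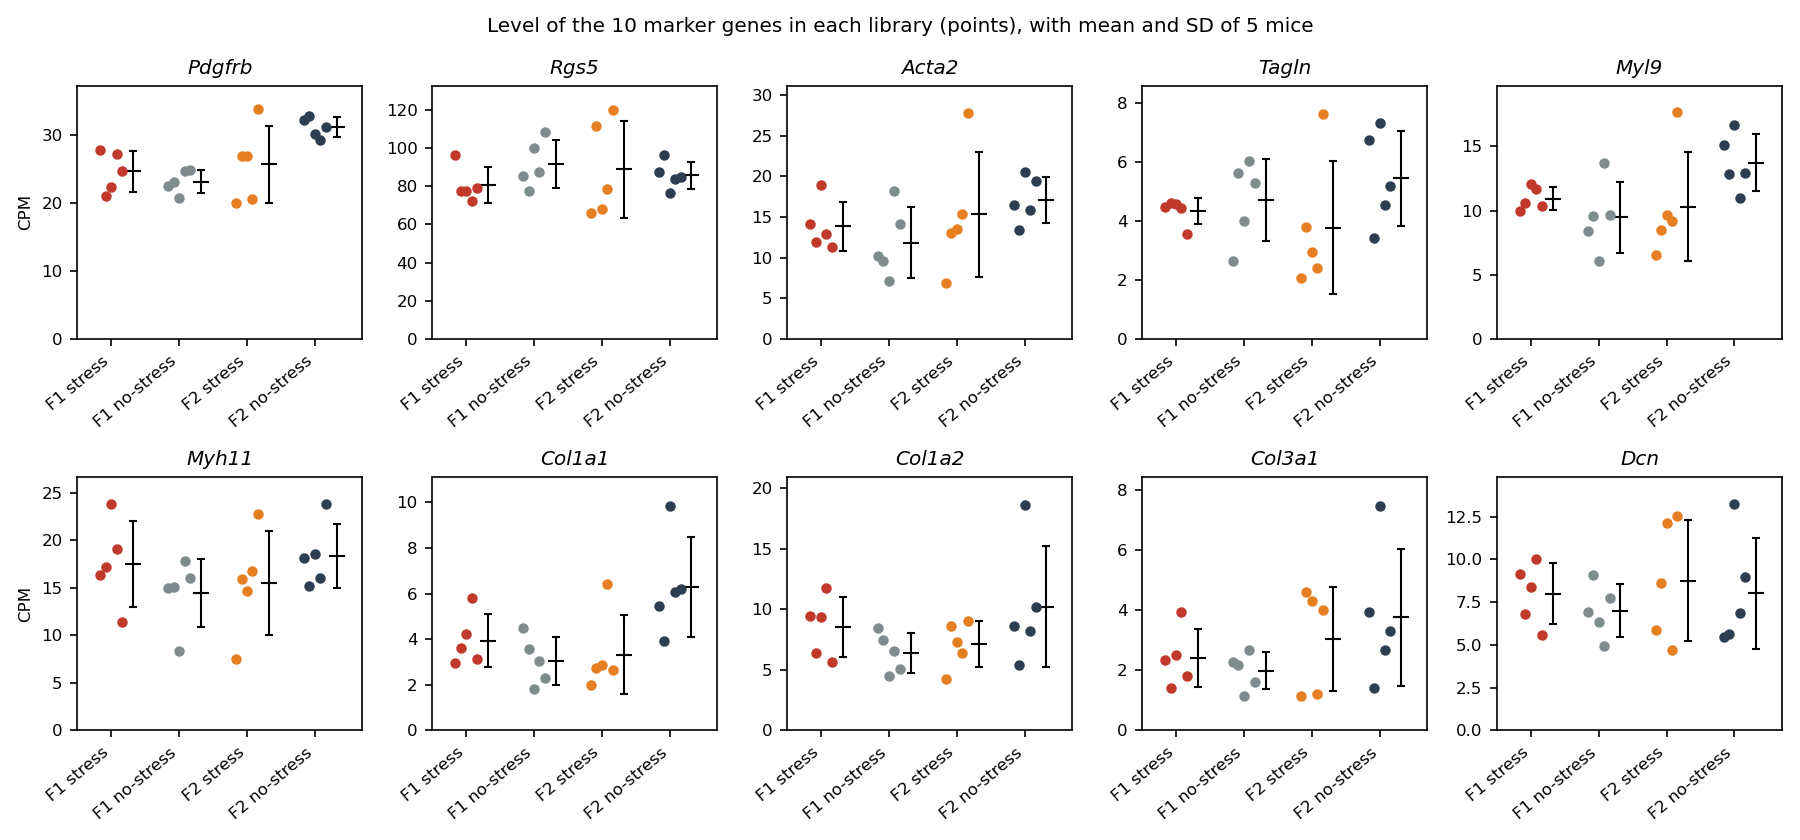
Level in CPM (vertical axes, from 0) of each marker gene in each of the 20 libraries, by group, with the mean and SD of 5 mice beside the points. Only in Pdgfrb did all F2 no-stress libraries (29.3 to 32.8 CPM) lie above all F1 no-stress libraries (20.7 to 24.8 CPM), and single F2 stress libraries stand high in Myl9 (17.7 CPM) and Col1a1 (6.40 CPM).

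Between stress and no-stress mice, none of the 10 genes passed in F1 or in F2 (edgeR quasi-likelihood test, Benjamini-Hochberg adjusted p below 0.05 over all genes tested). Of all genes, 0% passed in F1 and 7.92% in F2. With 1 library left out, 241 to 2431 genes passed in F2. In F2, 2 of the 10 genes had an unadjusted p below 0.05, that is Col1a1 and Pdgfrb, against 25.6% of all genes. In F1 none did, against 6.16% of all genes. The F2 log2 fold changes of the 10 genes were negative in 8, as were those of 49.8% of all genes, and their median was −0.29, against 0.001 for all genes. In F1, 8 were positive, against 51% of all genes, and the median was 0.21, against 0.004.

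Pdgfrb encodes the receptor by which pericytes respond to platelet-derived growth factor B (ENSMUSG00000024620, chr18:61045150-61085061 of GRCm38, plus strand, protein-coding like the other 9 genes). F2 stress replicates 11 to 15 had 19.96, 27.0, 27.0, 20.6 and 33.8 CPM, against 32.3, 32.8, 30.2, 29.3 and 31.2 CPM in F2 no-stress replicates 16 to 20. The no-stress mice lay close together, and 4 of the 5 stress mice lay below all of them while replicate 15 lay above. The means were 25.7 ± 5.63 and 31.1 ± 1.44 CPM (SD, n = 5 each), with a log2 fold change of −0.28 ± 0.12 (SE) and an adjusted p of 0.138 in edgeR. Without F2 stress replicate 15 the log2 fold change was −0.40, and it passed (adjusted p = 0.0178). In F1, stress replicates 1 to 5 had 27.8, 21.03, 22.4, 27.2 and 24.7 CPM, against 22.4, 23.0, 20.7, 24.7 and 24.8 CPM in no-stress replicates 6 to 10. These groups overlapped, and the log2 fold change was 0.09 ± 0.12 (edgeR adjusted p = 0.849).

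Rgs5, which encodes a regulator that shortens G protein signalling in pericytes and arterial smooth muscle (ENSMUSG00000026678, chr1:169655501-169695813, plus strand), was the most abundant of the 10. It had 66.0, 112, 68.0, 78.8 and 120.0 CPM in F2 stress replicates 11 to 15, against 87.3, 96.3, 76.4, 84.1 and 84.7 CPM in the F2 no-stress mice. The stress mice lay on both sides of the no-stress mice, with a wider spread. The log2 fold change was 0.05 ± 0.14 in F2 (95% interval −0.25 to 0.35, edgeR adjusted p = 0.86) and −0.19 ± 0.14 in F1 (−0.49 to 0.11, adjusted p = 0.751).

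The contractile genes encode smooth muscle alpha-actin (Acta2, ENSMUSG00000035783, chr19:34241090-34255590, minus strand), the actin-binding transgelin (Tagln, ENSMUSG00000032085, chr9:45929619-45936058, minus strand), a regulatory myosin light chain (Myl9, ENSMUSG00000067818, chr2:156775420-156781658, plus strand) and the smooth muscle myosin heavy chain (Myh11, ENSMUSG00000018830, chr16:14194535-14291372, minus strand). Myl9 had 6.56, 8.46, 9.68, 9.22 and 17.7 CPM in F2 stress replicates 11 to 15, against 15.1, 12.9, 16.7, 10.95 and 12.9 CPM in F2 no-stress replicates 16 to 20. Again 4 stress mice lay below all no-stress mice and replicate 15 above them. Tagln had 2.07, 3.78, 2.94, 2.39 and 7.63 CPM in F2 stress, against 6.74, 3.41, 7.32, 4.54 and 5.19 CPM in F2 no-stress, where the groups overlapped. Acta2 had 6.84, 13.1, 13.6, 15.3 and 27.8 CPM in F2 stress, against 16.4, 13.4, 20.5, 15.9 and 19.4 CPM in F2 no-stress. The stress mice thus held both the lowest and the highest level of Acta2 in the series. Myh11 had 7.49, 15.9, 14.6, 16.7 and 22.7 CPM in F2 stress, against 18.1, 15.2, 18.6, 16.1 and 23.8 CPM in F2 no-stress.

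The F2 log2 fold changes were −0.41 ± 0.22 for Myl9, −0.54 ± 0.30 for Tagln, −0.24 ± 0.24 for Myh11 and −0.16 ± 0.28 for Acta2 (edgeR adjusted p = 0.235, 0.262, 0.549 and 0.759). The calls of a pair of these turned on F2 stress replicate 15. Without it, Myl9 stood at −0.69 (adjusted p = 0.0155) and Tagln at −0.96 (adjusted p = 0.0156), and both passed. The number of all genes that passed also moved with the library left out, from 241 to 2431. Genes other than the markers moved as well. Among the 31 calls of list genes given below, the smallest edgeR adjusted p was 0.00236 without replicate 15, against 0.0107 with all libraries. Without F2 stress replicate 11, the mouse at the low end, Acta2 stood at 0.03. In F1 the log2 fold changes of the 4 genes ran from −0.12 (Tagln) to 0.28 (Myh11), with adjusted p from 0.765 to 0.921.

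The fibroblast genes encode both chains of type I collagen (Col1a1, ENSMUSG00000001506, chr11:94936224-94953042; Col1a2, ENSMUSG00000029661, chr6:4504814-4541544), type III collagen (Col3a1, ENSMUSG00000026043, chr1:45311538-45349706) and decorin, a proteoglycan that binds collagen fibrils (Dcn, ENSMUSG00000019929, chr10:97479609-97518143), all on the plus strand. Col1a1 had 1.996, 2.72, 2.87, 6.40 and 2.64 CPM in F2 stress replicates 11 to 15, against 5.45, 3.93, 9.86, 6.05 and 6.20 CPM in F2 no-stress replicates 16 to 20. The 4 lower stress mice lay below every no-stress mouse, and replicate 14 lay above 4 of the 5. The means were 3.33 ± 1.75 and 6.30 ± 2.19 CPM (SD, n = 5 each). The log2 fold change was −0.92 ± 0.30 (SE) in F2, and it did not pass (edgeR adjusted p = 0.0642, exact two-sided permutation test of log2 CPM p = 0.0397). It passed without replicate 14 (−1.30, adjusted p = 0.00716), in DESeq2 (−0.92, 0.0291), in limma-voom (−0.97, 0.0432) and with 1 surrogate variable (−1.08, 0.0115). It did not pass with relative log expression factors, with library totals, without the low-count filter or with only the F2 groups in the fit. With an offset in the fit for how the counts of a library ran with GC content and length, it stood at −0.55 (adjusted p = 0.348).

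The partner chain gene Col1a2 had 4.28, 8.61, 7.31, 6.40 and 9.06 CPM in F2 stress, against 8.63, 5.41, 18.6, 8.21 and 10.2 CPM in F2 no-stress. Col3a1 had 1.14, 4.61, 4.30, 1.20 and 4.002 CPM in F2 stress, against 3.94, 1.41, 7.47, 2.67 and 3.32 CPM in F2 no-stress. In both genes the groups overlapped, and F2 no-stress replicate 18 stood highest. Dcn had 5.85, 8.61, 12.1, 4.72 and 12.5 CPM in F2 stress, against 5.45, 5.63, 13.3, 6.85 and 8.94 CPM in F2 no-stress. The F2 log2 fold changes were −0.52 ± 0.28 for Col1a2, −0.31 ± 0.42 for Col3a1 and 0.12 ± 0.27 for Dcn (edgeR adjusted p = 0.255, 0.688 and 0.821). Without F2 no-stress replicate 18 that of Col3a1 was 0.10, and without F2 stress replicate 15 that of Dcn was −0.04. In F1 the 4 values ran from 0.19 (Dcn) to 0.41 (Col1a2), with adjusted p from 0.743 to 0.877.

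The difference between the F2 and the F1 lineage effects passed in 2.52% of all genes and in none of the 10. It was negative in 9 of them and in 50.6% of all genes, with medians of −0.47 and −0.005. Col1a1 (−1.29 ± 0.44 SE, edgeR adjusted p = 0.0982), Col1a2 (−0.93 ± 0.40, 0.188) and Pdgfrb (−0.37 ± 0.17, 0.208) had an unadjusted p below 0.05, as did 21.2% of all genes. Without F2 stress replicate 14 the difference of Col1a1 was −1.67 and passed (adjusted p = 0.0124). Without F2 stress replicate 15 that of Myl9 was −0.90 and passed (0.0473).

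**Figure D2:**
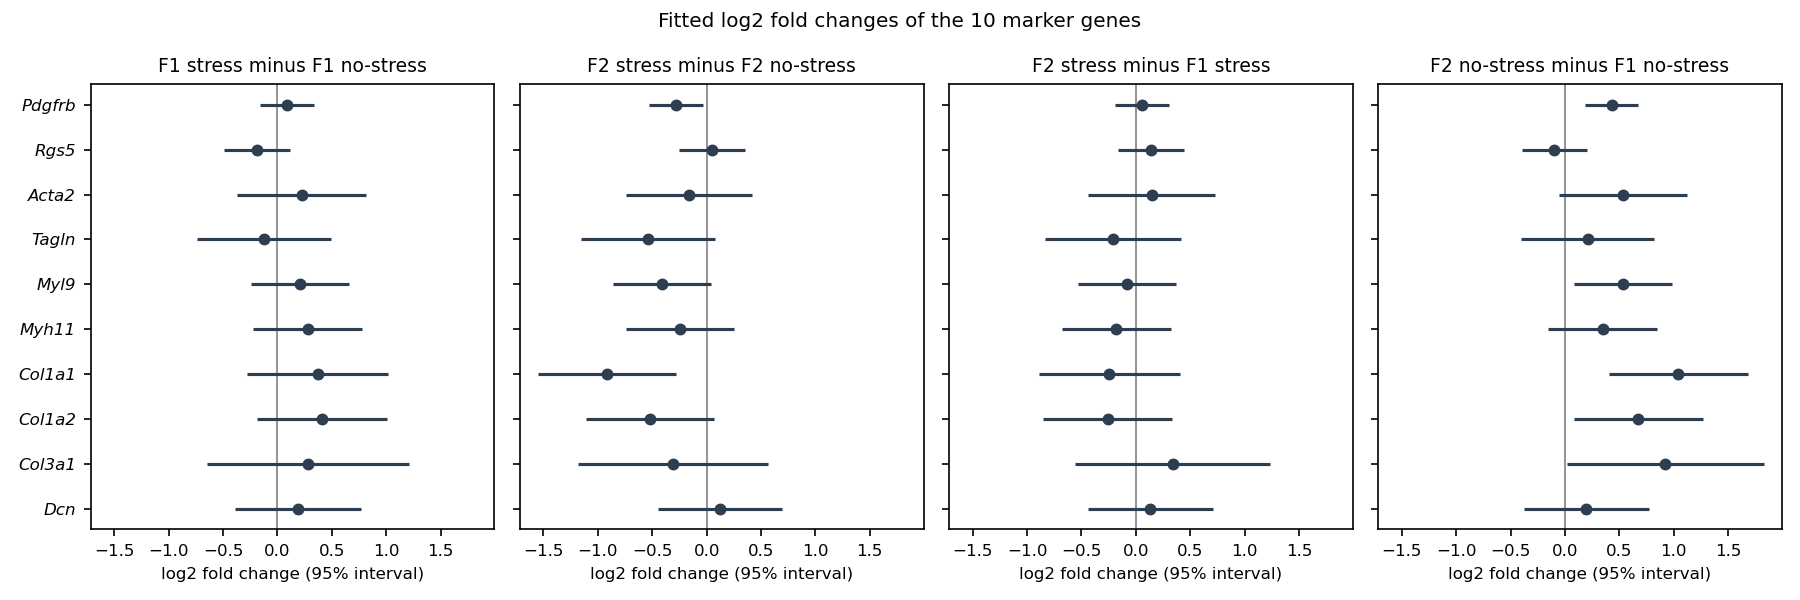
Fitted log2 fold change of each marker gene (points) with its 95% interval (lines) in the 4 comparisons of groups; the first-named group is on top of the ratio. In F2 the points of 8 genes lie left of 0, and between the no-stress groups those of 9 lie right of 0, with Col1a1 farthest from 0 in both.

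Between generations, the stress lineage showed no call among the 10 genes, and 0.012% of all genes passed. The log2 fold changes of F2 stress against F1 stress ran from −0.26 (Col1a2) to 0.34 (Col3a1), with edgeR adjusted p from 0.846 to 0.946, and none had an unadjusted p below 0.05, against 6.99% of all genes. In the no-stress lineage, 2% of all genes passed and again none of the 10. Here 9 of the 10 fold changes were positive, against 52.5% of all genes, with medians of 0.48 and 0.017, and 5 genes had an unadjusted p below 0.05, against 20.2% of all genes. The F2 no-stress libraries enter this comparison and the F2 lineage comparison alike, on opposite sides of the ratio.

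Pdgfrb was at 31.1 ± 1.44 CPM in F2 no-stress and 23.1 ± 1.73 CPM in F1 no-stress mice (SD, n = 5 each), and each F2 mouse lay above each F1 mouse. Of all genes, 2.53% were higher without overlap in this way. The log2 fold change was 0.43 ± 0.12 (SE), short of the threshold (edgeR adjusted p = 0.0596), and the exact permutation test gave p = 0.00794, the smallest that 5 against 5 allows. It passed in DESeq2 (0.42, adjusted p = 0.0208), with library totals in place of scaling factors (0.44, 0.0452) and with 1 surrogate variable (0.48, 0.0143). It also passed without F2 stress replicates 11, 14 and 15 in turn (0.43 each, adjusted p from 0.0336 to 0.0461), mice that are in neither group but share the estimate of spread. It did not pass in limma-voom, with relative log expression factors, without the low-count filter or with only the no-stress groups in the fit. With the offset for GC content and length it was 0.24 (adjusted p = 0.352).

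Col1a1 had 5.45, 3.93, 9.86, 6.05 and 6.20 CPM in F2 no-stress and 4.50, 3.57, 1.81, 3.06 and 2.29 CPM in F1 no-stress mice. The F2 mice lay above all F1 mice except replicate 6, which exceeded F2 replicate 17. The log2 fold change was 1.04 ± 0.31 (SE, edgeR adjusted p = 0.0723, exact permutation test p = 0.0159). It passed without F1 no-stress replicate 6 (1.23, adjusted p = 0.0392), without F2 stress replicate 14 (1.04, 0.0313), in DESeq2 (1.04, 0.0219) and with 1 surrogate variable (0.96, 0.0401). It did not pass in limma-voom, with other scaling, without the low-count filter or with only the no-stress groups in the fit. With the offset it was 0.77 (0.257). For Myl9 it was 0.53 ± 0.22 (adjusted p = 0.171, exact permutation test p = 0.0317), for Col3a1 0.92 ± 0.43 (0.239) and for Col1a2 0.67 ± 0.28 (0.189). For Acta2 it was 0.53 ± 0.28 (0.302), for Myh11 0.35 ± 0.24 (0.441), for Tagln 0.21 ± 0.29 (0.737), for Dcn 0.20 ± 0.28 (0.737) and for Rgs5 −0.10 ± 0.14 (0.752). In all, 4 of 40 exact tests of a gene in a comparison of groups gave an unadjusted p below 0.05. They were those of Col1a1, Pdgfrb and Myl9 named here and that of Col1a1 in F2. The share of all genes was not computed for this test. In edgeR, 20.2% of all genes had an unadjusted p below 0.05 between the no-stress groups, and 25.6% in F2.

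Base composition moved with these fold changes across genes. Genes lower in F2 stress had a median GC content of 57.8% and genes higher there 43.0%, and genes higher in F2 no-stress than in F1 no-stress had 57.5% against 42.3% for the lower ones. Among the 10 markers, Col1a1 had the highest GC content (58.9%), followed by Myl9 (56.6%), Col1a2 (55.7%) and Pdgfrb (54.9%), and Dcn (37.4%) and Rgs5 (41.1%) the lowest. With the offset, which takes GC content and length together, the log2 fold changes of the 10 genes ran from −0.55 (Col1a1) to 0.045 (Dcn) in F2, with adjusted p from 0.348 to 0.961. Between the no-stress groups they ran from 0.0027 (Rgs5) to 0.83 (Col3a1), with adjusted p from 0.257 to 0.997. The part of base composition alone was not tested.

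Mouse-to-mouse variation within groups was compared between the 10 genes. Over the 20 libraries, with group means removed, 43 of the 45 pairs correlated positively in log2 CPM, with a median Pearson r of 0.51. By a permutation test within groups, 12 pairs passed at an adjusted p below 0.05 over the 45 pairs, and 5 did by Spearman's rho. The pairs among contractile genes had r from 0.59 to 0.88, and 5 of 6 passed. The pairs among fibroblast genes had r from 0.15 to 0.87, and 4 of 6 passed. Of 16 pairs of a contractile with a fibroblast gene 2 passed, of 8 pairs of a contractile with a pericyte gene 1, and of 8 pairs of a fibroblast with a pericyte gene 0. No pair with Rgs5 passed. The 1 contractile pair with a pericyte gene was Pdgfrb and Myl9 (r = 0.65, rho = 0.40, adjusted p = 0.0369 and 0.167), whose r was 0.29 without the 2 libraries farthest from the median of Pdgfrb. Pairs in one library share its depth and its scaling.

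**Figure D3:**
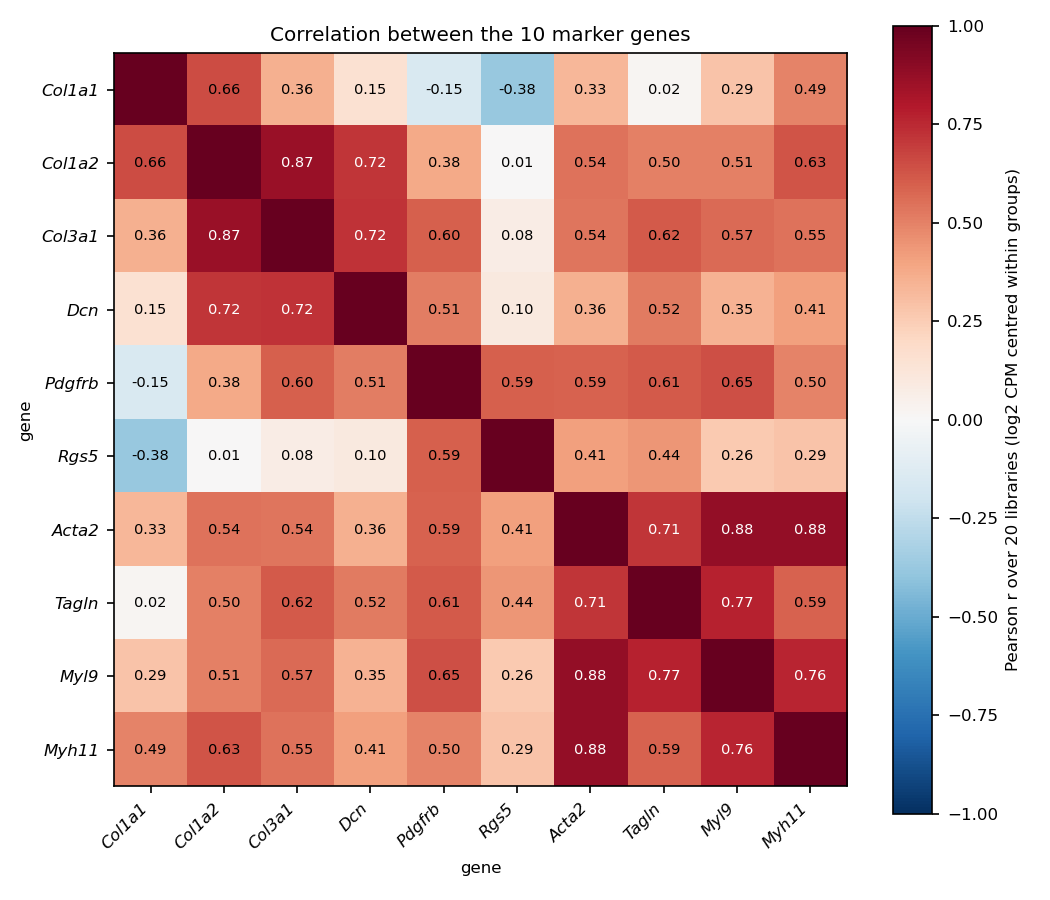
Pearson r between the marker genes over 20 libraries, on log2 CPM with group means removed. A block of high values joins Acta2, Myl9, Myh11 and Tagln, a second joins Col1a2, Col3a1 and Dcn, and Col1a1 with Rgs5 is the lowest pair at −0.38.

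Acta2 and Myh11 had r = 0.88 (rho = 0.81, adjusted permutation p = 0.00045 and 0.0018), and 0.80 without the pair of libraries farthest from the median of Acta2. Acta2 and Myl9 had r = 0.88 (rho = 0.69, adjusted p = 0.0054 and 0.0299), and 0.78 without such a pair. Tagln and Myl9 had r = 0.77 (rho = 0.73, adjusted p = 0.028 and 0.0233), and 0.64 without. Col1a2 and Col3a1 had r = 0.87 (rho = 0.83, adjusted p = 0.00045 and 0.0018), and 0.80 without. Col1a2 and Dcn had r = 0.72 (rho = 0.72, adjusted p = 0.0144 and 0.018), and 0.61 without. These 5 pairs are those that passed by both measures.

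Col1a1 had lower r values with the other fibroblast genes than these had with each other (0.72 to 0.87), a difference that was not tested. Its r was 0.66 with Col1a2 (rho = 0.63, adjusted permutation p = 0.028 and 0.0504), 0.36 with Col3a1 (rho = 0.43, adjusted p = 0.283 and 0.148) and 0.15 with Dcn (rho = 0.20, adjusted p = 0.677 and 0.511). Without the 2 libraries farthest from the median of Col1a1 the values were 0.81, 0.72 and 0.45. Col1a1 and Rgs5 had r = −0.38 (rho = −0.56, adjusted p = 0.281 and 0.0637). Pdgfrb and Rgs5, both pericyte markers, had r = 0.595 (rho = 0.50, adjusted p = 0.154 and 0.148), and 0.27 without 2 libraries.

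**Figure D4:**
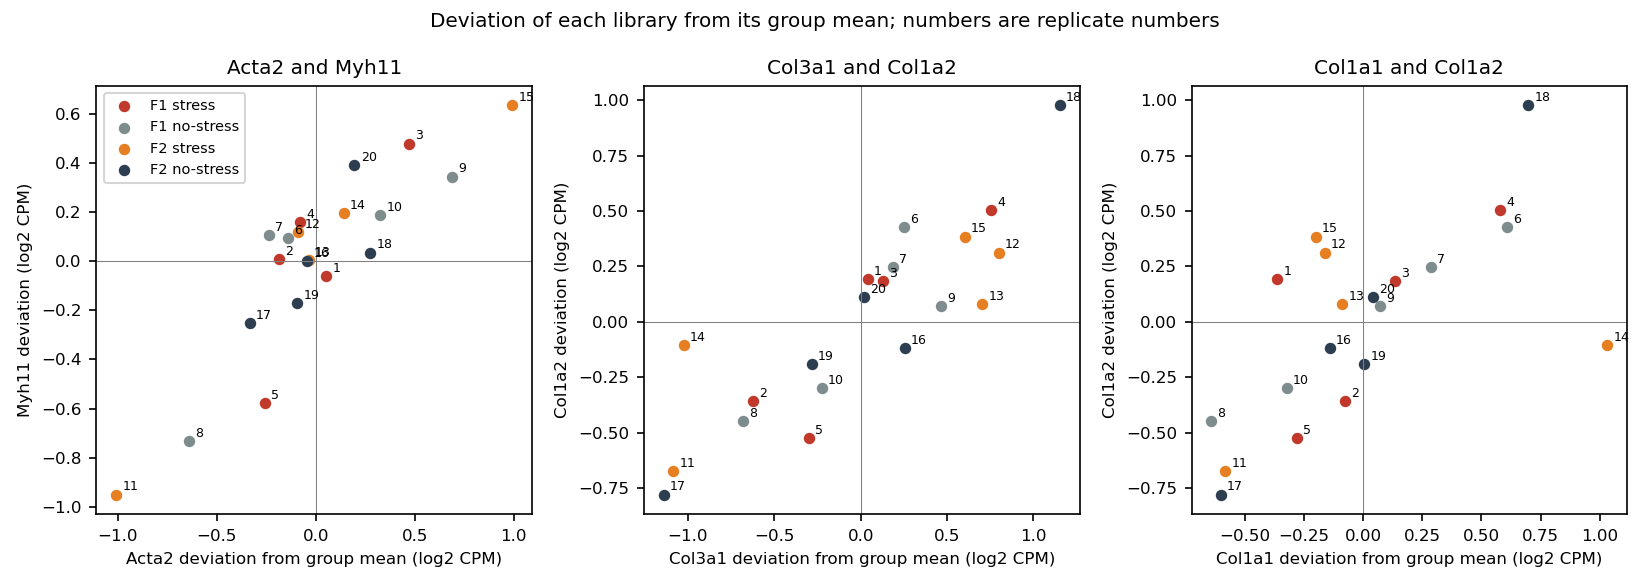
Deviation of each library from its group mean in log2 CPM for Acta2 and Myh11, Col3a1 and Col1a2, and Col1a1 and Col1a2, with replicate numbers. F2 stress replicates 11 and 15 stand at opposite ends for Acta2, and F2 stress replicate 14 lies apart from the other libraries in the plot of Col1a1.

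F2 stress replicate 11 was the lowest of its group in 9 of the 10 genes and replicate 15 the highest in 8. The 4 contractile genes summed to 75.8 CPM in replicate 15 and 23.0 CPM in replicate 11, the extremes of the series. F2 no-stress replicate 18 was the highest of its group in 7 genes, among them all 4 fibroblast genes, which summed to 49.2 CPM there and to 13.3 to 31.5 CPM in the other 19 libraries. F1 stress replicate 4 was likewise the highest of its group in all 4 fibroblast genes, and F1 no-stress replicate 9 in all 4 contractile genes. Between these F2 stress libraries, markers of striatal neurons summed to 6727 CPM in replicate 15 and 2708 CPM in replicate 11, those of blood to 277 and 86.3 CPM, those of microglia to 699 and 522 CPM, those of neurons to 6075 and 7517 CPM, and those of the endothelium to 469 and 337 CPM. The endothelial extremes of the group were replicates 13 (513 CPM) and 14 (274 CPM). Microglial markers were lowest in replicate 14 (328 CPM) and neuronal ones highest in replicate 12 (8900 CPM). Lists of other pericyte and other smooth muscle genes summed lowest in replicate 14 (128 and 290 CPM) and highest in replicate 15 (198 and 438 CPM). Other fibroblast and meningeal genes summed lowest in replicate 11 (237 CPM) and highest in replicate 13 (328 CPM). The part of these other markers in the spread of the 10 genes was not tested.

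Promoters of 2 pairs of genes with high r are printed here, from RefSeq on GRCm38.p6. Windows of 250 bases before to 50 after the RefSeq start were used for 5 of the 10 genes, and those of the other 5 were not analysed here. The RefSeq starts of Acta2, Myl9 and Col1a2 lie inside the gene spans given above, and the Col1a2 window lies wholly inside its span. Capitals mark the motifs searched on both strands: the CArG box bound by serum response factor, also with 1 core base other than A or T, CCAAT and TATAAA. The windows are chr19:34255324-34255623 on the minus strand for Acta2 and chr2:156775214-156775513 on the plus strand for Myl9, the only contractile pair with windows. They are chr6:4505368-4505667 for Col1a2 and chr1:45311288-45311587 for Col3a1, both on the plus strand, the most alike fibroblast pair.
Acta2: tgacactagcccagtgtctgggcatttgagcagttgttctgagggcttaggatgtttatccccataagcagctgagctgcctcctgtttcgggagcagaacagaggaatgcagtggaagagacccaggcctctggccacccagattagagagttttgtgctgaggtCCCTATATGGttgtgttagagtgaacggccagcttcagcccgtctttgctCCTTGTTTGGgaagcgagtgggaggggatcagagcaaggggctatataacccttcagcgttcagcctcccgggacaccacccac
Myl9: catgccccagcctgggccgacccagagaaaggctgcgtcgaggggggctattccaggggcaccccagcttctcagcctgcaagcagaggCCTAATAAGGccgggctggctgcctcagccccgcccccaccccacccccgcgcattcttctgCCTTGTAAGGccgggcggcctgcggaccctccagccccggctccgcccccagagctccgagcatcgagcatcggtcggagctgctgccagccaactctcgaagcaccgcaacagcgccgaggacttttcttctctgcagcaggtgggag
Col1a2: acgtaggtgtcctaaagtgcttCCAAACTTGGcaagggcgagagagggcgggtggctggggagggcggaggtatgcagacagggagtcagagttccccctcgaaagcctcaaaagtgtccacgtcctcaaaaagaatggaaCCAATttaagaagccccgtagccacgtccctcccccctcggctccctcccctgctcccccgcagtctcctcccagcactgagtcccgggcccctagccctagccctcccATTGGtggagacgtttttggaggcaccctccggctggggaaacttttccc
Col3a1: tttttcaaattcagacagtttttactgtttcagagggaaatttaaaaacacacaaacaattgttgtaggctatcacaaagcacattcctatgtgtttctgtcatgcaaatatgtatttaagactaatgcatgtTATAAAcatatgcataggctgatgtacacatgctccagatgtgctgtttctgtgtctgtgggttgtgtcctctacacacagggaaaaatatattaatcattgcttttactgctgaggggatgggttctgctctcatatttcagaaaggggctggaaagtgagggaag

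With the start as position 0, the Myl9 window held a CArG box at −161 to −152 and one with 1 other core base at −99 to −90. The Acta2 window held a pair with 1 other core base, at −84 to −75 and at −34 to −25, and Col1a2 held one at −228 to −219. Col1a2 also had CCAAT at −109 to −105 and, on the other strand, at 0 to 4, and Col3a1 had TATAAA at −117 to −112. The Rgs5 window, which is not printed, had CCAAT on the other strand at −67 to −63. Of 32851 promoter windows of this length, 1.63% held a CArG box, 8.5% one with 1 other core base, 37.4% CCAAT and 13.6% TATAAA. A match describes letters and is no proof of a bound site.

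For each marker, up to 3 of the genes most alike over the 20 libraries are named, found by Pearson r on the same centred values, among 15560 genes with a mean of at least 1 CPM. They are given as a description. Over all candidates the median r lay between −0.014 (Dcn) and 0.008 (Acta2). The 99th percentile lay between 0.56 (Col1a2) and 0.71 (Pdgfrb). As the genes were picked for the highest r of so many, high values are built in, and none was tested. Acta2 and Myh11 both went with Mrvi1 (r = 0.83 and 0.86), a gene of smooth muscle relaxation, and Acta2 and Myl9 both with the transglutaminase gene Tgm2 (0.83 and 0.87). The other genes were Sdc4 (0.81) for Acta2, Crip1 (0.86) and Kazn (0.81) for Myl9, Irak1 (0.88) and the endothelial gene Sox17 (0.84) for Myh11, and Ky (0.85), the intermediate filament gene Vim (0.84) and Sptb (0.83) for Tagln. Pdgfrb went with the chemokine gene Cxcl12 (0.89), the endothelial gene Clec14a (0.85) and Sh3pxd2a (0.85), and Rgs5 with Socs7 (0.80) and Gm36371 (0.77).

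Among the fibroblast genes, Col3a1 went with Aebp1 (r = 0.91), which encodes a collagen-binding matrix protein, with the complement inhibitor gene Serping1 (0.88) and with the basement membrane collagen gene Col4a6 (0.87). Dcn went with Abca9 (0.86), with Bgn (0.85), which encodes the related proteoglycan biglycan, and with Cd74 (0.83). Col1a2 went with the astrocyte gene Gfap (0.85), with Cd74 (0.85) and with the smooth muscle gene Lmod1 (0.83). Col1a1 went with the transcription factor genes Zic2 (0.90) and Klf12 (0.87) and with Nectin1 (0.82).

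Genes that act beside the markers were read in lists. Of all genes, 5.28% were lower and 2.64% higher in F2 stress than in F2 no-stress mice. Of 14 genes of the vascular basement membrane, the sheet in which pericytes are embedded, 4 were lower in that comparison and none higher. Of their fold changes 12 were negative (median −0.29). Hspg2, the gene of the heparan sulphate proteoglycan perlecan, had 7.40 ± 2.12 CPM in F2 stress and 13.1 ± 1.71 CPM in F2 no-stress mice (SD, n = 5 each; log2 fold change −0.83, edgeR adjusted p = 0.0155). The laminin gene Lamb2 (−0.70, adjusted p = 0.0114), the agrin gene Agrn (−0.63, 0.0143) and the collagen IV gene Col4a2 (−0.82, 0.023) were lower as well. In F2 no-stress against F1 no-stress mice, 5 of the 14 rose, against 1.47% of all genes, and all 14 fold changes were positive (median 0.49). They were Col4a2 (1.05, edgeR adjusted p = 0.0265), Hspg2 (0.93, 0.0267), Col4a1 (0.96, 0.0268), Lamb2 (0.67, 0.0306) and Agrn (0.57, 0.0439). Agrn, the fifth, was named after its value was seen. The difference between the lineage effects was negative and passed (as in 1.68% of all genes) in Hspg2 (−1.28), Col4a2 (−1.32), Lamb2 (−0.995) and Agrn (−0.93), with adjusted p from 0.0309 to 0.0314. The same F2 no-stress mice enter each of these comparisons, here and in the lists below. Between the stress groups, none of the 14 passed.

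The 23 tested partners and assembly enzymes of fibrillar collagen had a median of −0.41 in F2. Of these, 4 were lower in F2 stress than in F2 no-stress mice and none higher. They were Plod3, a lysyl hydroxylase gene (−0.44, edgeR adjusted p = 0.0175), Loxl3, a gene of cross-linking (−0.64, 0.0204), the collagen chaperone gene Serpinh1 (−0.59, 0.0287) and the prolyl hydroxylase gene P3h1 (−0.48, 0.0491). In F2 no-stress against F1 no-stress mice, Plod3 (0.43, 0.0427), the procollagen protease gene Bmp1 (0.70, 0.043) and Col5a1 (1.26, 0.0491) rose, with a list median of 0.38. The difference between the lineage effects passed in Plod3 (−0.58, 0.0439).

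Of 22 other tested fibroblast and meningeal genes, Igfbp2 and Col6a1 were lower in F2 stress than in F2 no-stress mice, as were 5.28% of all genes. Of the 22 fold changes 14 were negative and 8 positive (median −0.24). Igfbp2 (−1.14, edgeR adjusted p = 0.0392) encodes a binding protein of insulin-like growth factors, and Col6a1 (−0.76, 0.046) a chain of collagen VI. None of the 22 passed between the no-stress groups. Of 14 other pericyte genes, 11 had a negative and 3 a positive fold change in F2 (median −0.21). Only the aminopeptidase gene Anpep of these passed, lower in F2 stress than in F2 no-stress mice (−0.64, 0.0491). The difference between its lineage effects passed (−1.04, 0.0492). Vtn, the vitronectin gene, and Mcam, an adhesion molecule gene, the 2 most abundant of that list, stood at 0.46 and 0.34 between the no-stress groups (adjusted p = 0.0505 and 0.391). None of 14 other tested smooth muscle genes passed in any comparison, and the median F2 fold change of that list was 0.004.

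Upstream of the markers, none of 5 genes of platelet-derived growth factors and their other receptor passed, with Pdgfb, the endothelial ligand of Pdgfrb, at −0.23 in F2 (edgeR adjusted p = 0.369) and Pdgfra at 0.17 (0.346). There were 11 tested genes of transforming growth factor beta, its receptors and serum response factor with its cofactors. In F2 stress against F2 no-stress mice, the cofactor gene Mkl1 was lower (−0.64, 0.0121) and the signal transducer gene Smad2 higher (0.33, 0.0485). The cofactor gene Myocd, at no more than 14 counts in any library, was not tested. None of the 5 tested relatives of Rgs5 passed, for example Rgs4 at 0.16 (0.828) and Rgs8 at −0.002 (0.996) in F2. None of the 6 tested relatives of Dcn passed, for example Bgn at −0.10 (0.819) and Prelp at −0.08 (0.80) in F2.

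Of 17 endothelial genes, Egfl7 (−0.57, edgeR adjusted p = 0.0107), Tie1 (−0.58, 0.0287) and Cldn5 (−0.49, 0.0411) were lower in F2 stress than in F2 no-stress mice. Of the 17 fold changes 8 were positive and 9 negative (median −0.03), and 5.28% of all genes passed as lower. Cldn5 was higher in F2 no-stress than in F1 no-stress mice (0.60, 0.0415). The F2 stress mean of Cldn5 (13.8 CPM) lay above those of F1 stress (12.1 CPM) and F1 no-stress mice (12.8 CPM). That of Egfl7 (13.8 CPM) lay below them (15.6 and 16.7 CPM), as did that of Tie1 (7.24 against 8.23 and 8.33 CPM). Between the stress groups, none of the 17 passed. No gene passed in any comparison in the lists of perivascular macrophages, blood, choroid plexus, ependyma, astrocytes, oligodendrocytes, microglia, neurons and striatal neurons. None of the 31 calls of list genes named here held with the offset for GC content and length (adjusted p from 0.12 to 0.761), and none of the 25 between 2 groups held with only those groups in the fit (0.0797 to 0.181). With the offset, the F2 log2 fold changes were −0.32 for Hspg2, −0.32 for Lamb2, −0.33 for Agrn, −0.37 for Col4a2, −0.11 for Plod3, −0.66 for Igfbp2 and −0.11 for Cldn5. In F2, Hspg2, Lamb2, Egfl7 and Mkl1 passed whichever library was left out, whereas Smad2 lost its call in 17 of 20 such fits, P3h1 in 16, Anpep and Col6a1 in 15, Cldn5 in 12 and Igfbp2 in 7, and the other 6 in 1 to 5. For the difference between the lineage effects, the calls of Hspg2, Lamb2, Agrn and Col4a2 were each lost in 11 of 20 such fits, that of Plod3 in 13 and that of Anpep in 16. Between the no-stress groups, Col4a1, Col4a2, Hspg2 and Lamb2 each lost their call in 5, Plod3 in 12, Cldn5 in 13, Agrn and Bmp1 in 14 and Col5a1 in 16.

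**Figure D5:**
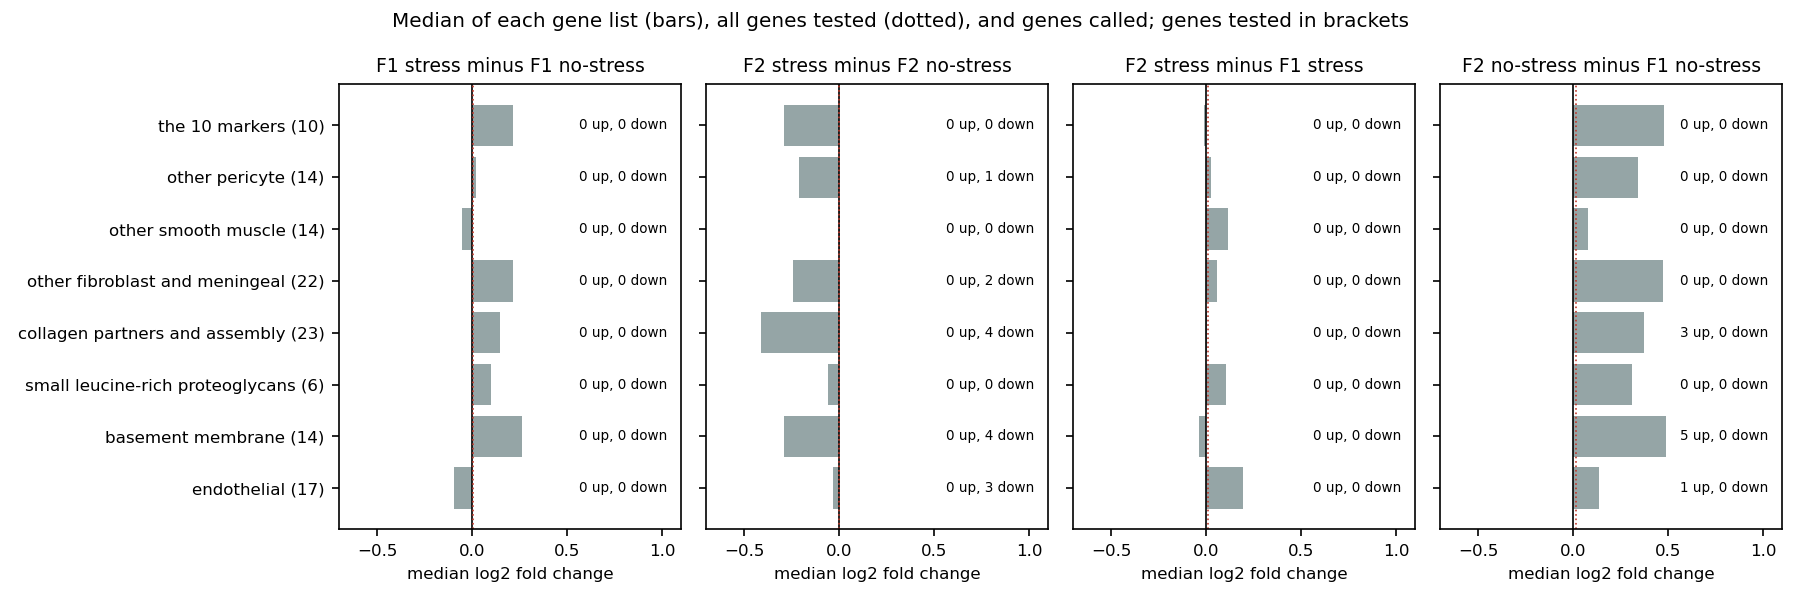
Median log2 fold change (bars) of the 10 markers and of lists of related genes in 4 comparisons of groups, with the number of genes that passed higher (up) and lower (down) and, in brackets, the number tested; the dotted line is the median of all genes. For F2 stress against F2 no-stress, every bar but that of other smooth muscle (0.004) lies left of 0, that of the endothelium by little (−0.03). For F2 no-stress against F1 no-stress, every bar lies right of 0.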

How the data were processed

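RNA of 20 amygdala punches was sequenced after stranded poly-A selection (TruSeq, per the labels' protocols). STAR 2.5.3a and the build GRCm38 are named in the submitters' processing notes. How reads were counted, with which annotation and strand setting, is not given in the sources used here. What the authors deposited are counts per Ensembl gene, whole numbers brought to nearly equal totals (13654890 to 13714805) by a step that no source describes, so the depth before it is unknown.

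The counts as deposited were tested with edgeR 4.0.16 in R 4.3.3 (filterByExpr, TMM factors 0.956 to 1.042, robust quasi-likelihood fit, 1 mean per group, all 20 libraries). A gene was called at an adjusted p below 0.05 over 16727 genes. Alternatives used DESeq2 1.42.0, limma 3.58.1 (voom), sva 3.50.0, other scaling, no filter, an offset of splines with 5 degrees of freedom for GC content and length (16692 genes with both), only the groups compared, and each library left out. Log2 CPM used a prior count of 2. Exact two-sided permutation tests took 252 arrangements, and correlations 100000 shuffles within groups. Lengths, GC content and positions are those of GENCODE M21 (longest transcript), promoters those of RefSeq. CPM per kilobase divides by that length. The scripts were tested on simulated data. Python 3.11.15 drew the figures.

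All 10 markers are named. Beside each, the genes most alike in pattern are named, and 1 result among them is not reported here. Of each other list, the called genes are named (at most 4, smallest p), or else 2 with the highest mean CPM as values where shown. The markers and lists were chosen with earlier results of these data known. The labels call the mice biological replicates and name no batch, litter or pairing.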

Additional observations from a re-analysis of the deposited data

Results flagged for a closer look

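In 4 of the 40 sets of 5 libraries (10 genes in 4 groups), 1 library stood far from the other 4 of its group by Dixon's test, which flags about 1 in 20 sets by chance. Col1a1 was at 6.40 CPM in F2 stress replicate 14 and at 1.996 to 2.87 CPM in the other F2 stress mice. Myl9 was at 17.7 CPM in F2 stress replicate 15 and at 6.56 to 9.68 CPM in the others. Rgs5 was at 96.6 CPM in F1 stress replicate 1 and at 72.3 to 79.1 CPM in the others. Tagln was at 3.57 CPM in F1 stress replicate 5 and at 4.43 to 4.62 CPM in the others.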

How the results depend on the processing

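No paired analysis was possible because each mouse has its own replicate number. Of the 10 markers, 0 passed in each of the 5 comparisons. Elsewhere 1 passed in F2 in DESeq2, limma-voom, with 1 surrogate variable and without both libraries lowest in striatal or neuronal markers (F2 stress 14, F2 no-stress 20, a setting chosen after seeing the data). In the difference 1 passed in DESeq2, with 1 surrogate variable and without those libraries. Between the no-stress groups 2 passed in DESeq2, with 1 surrogate variable and without those libraries, and 1 with library totals. Leaving out 1 library gave 0 to 3 in F2, 0 to 1 in the difference, 0 to 2 between the no-stress groups and 0 elsewhere.

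Of all genes, 1324 passed in F2, against 2054 in DESeq2, 737 without the low-count filter, 8 with the GC and length offset, 2204 with 1 surrogate variable, 0 with only the groups compared (3216 at an unadjusted p below 0.05), 2213 without the 2 libraries and 241 to 2431 leaving out 1. For the difference 421 passed, against 1240, 100 and 0 (2499 unadjusted) in the first 3 of these settings, 1643 without the 2 libraries and 0 to 1501 leaving out 1. Between the no-stress groups 335 passed, against 1028 in DESeq2, 208 with library totals, 61 without the filter, 9 with the offset, 649 with 1 surrogate variable, 0 with only those groups (3105 unadjusted), 631 without the 2 libraries and 0 to 725 leaving out 1. Between the stress groups 2 passed, against 6 in DESeq2, 1 in limma-voom, 0 with library totals (1101 unadjusted), 4 with the offset, 0 with only those groups (1006 unadjusted), 14 without the 2 libraries and 0 to 10 leaving out 1. In F1 0 passed (1030 unadjusted), against 2 in DESeq2, 1 with library totals and 0 to 1 leaving out 1. Of the 45 correlations 12 passed, and 5 to 18 leaving out 1 library. Of the 40 exact tests 4 gave an unadjusted p below 0.05, and 2 to 9 leaving out 1. The causes were not tested.

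Of 438 fold changes of the markers in other settings, 419 kept their direction and side of the threshold, 14 newly passed and 5 turned round. The last were Rgs5 in F2 (−0.069) and between the no-stress groups (0.0027) with the offset, Tagln in F1 (0.26) and Pdgfrb between the stress groups (−0.00202) with 1 surrogate variable, and the Dcn difference (0.13) without the 2 libraries. Vtn in F1 turned to 0.078 with 1 surrogate variable, and ran from −0.071 to 0.0054 with 1 library left out. Of 1000 with 1 library left out, 17 turned round and 11 newly passed. The range was −0.49 to 0.026 for Acta2, −0.515 to 0.10 for Col3a1, −0.039 to 0.38 for Dcn and −0.081 to 0.14 for Rgs5 in F2. Between the stress groups it was −0.18 to 0.33 for Acta2, −0.37 to 0.042 for Myl9, −0.031 to 0.29 for Dcn and −0.060 to 0.14 for Pdgfrb. For the Dcn difference it was −0.23 to 0.19, for Dcn between the no-stress groups −0.061 to 0.31. At 15 to 103 counts for Col3a1, counting error adds to the spread between mice.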
